A study of Mus musculus with 15 samples.

Results

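Npc1l1, Scarb1, Abca1, Abcg5, Abcg8, Soat2 and Nr1h3 carry sterols into and out of the absorptive cells of the gut (enterocytes), esterify them, or control these steps. The 7 genes were chosen by function from the 37620 gene identifiers of each deposited table, and each symbol matched 1 identifier. All 7 were counted in every library and passed the filter on low counts. The samples are RNA from the ileum (the distal small intestine) of 15 adult mice, all given tamoxifen by gavage. Animals labelled mutant (Rfx6f/f; Vilin-CreERT2, spelled as in the labels) carried loxP sites in both alleles of Rfx6, which encodes a transcription factor of hormone-producing gut cells. They also carried a tamoxifen-inducible Cre recombinase driven by the Villin promoter, which is active across the intestinal epithelium. The controls had floxed Rfx6 and no recombinase, so Cre and the loss of Rfx6 cannot be told apart. The cohort taken 8 days after tamoxifen had 3 controls, all Rfx6f/f, and 4 animals labelled mutant. The cohort taken 3 months after tamoxifen had 4 controls, of which replicates 1 and 4 were Rfx6f/f and replicates 2 and 3 were Rfx6f/+, and 4 animals labelled mutant.

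Enterocytes take up cholesterol from the gut lumen through NPC1L1, a membrane protein of the brush border and the target of ezetimibe. The acyltransferase SOAT2 (ACAT2) esterifies the absorbed cholesterol for packing into chylomicrons. ABCG5 and ABCG8 form a heterodimer that pumps sterols, plant sterols above all, back into the lumen, while ABCA1 passes cholesterol to apolipoprotein A-I at the other side of the cell. The scavenger receptor SR-BI, encoded by Scarb1, binds HDL and is found on enterocytes. Nr1h3 encodes the oxysterol receptor LXR alpha, which activates Abca1, Abcg5 and Abcg8.

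Abcg5 and Abcg8 lie head to head on chromosome 17, and the stretch between and around their start sites is shown because both genes are read from it in opposite directions. RefSeq promoter windows (GRCm38.p6, 250 bases before to 50 after a start site) were found for 5 of the 7 genes, in 7 windows, and none for Scarb1 and Soat2. The window of Abcg5 (minus strand, start site 84683011) and a window of Abcg8 (plus strand, start site 84683121) overlap at chr17:84682962-84683170, 209 bases with 110 bases between the start sites. Capitals mark AGATAA, the core bound by GATA factors, on either strand, written 5′ to 3′ on the plus strand:
Abcg5 and Abcg8: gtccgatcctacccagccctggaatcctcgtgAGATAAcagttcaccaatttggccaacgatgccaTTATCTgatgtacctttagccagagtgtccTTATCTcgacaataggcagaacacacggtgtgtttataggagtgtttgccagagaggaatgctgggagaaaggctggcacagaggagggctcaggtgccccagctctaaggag
The stretch holds 3 matches, 2 of them between the start sites. At least 1 AGATAA was found in 11.2% of the 32851 windows of 300 bases in the RefSeq table, and 3 or more in 0.107% of them, or 35 windows.

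At 3 months Npc1l1 and Abca1 differed in opposite directions, and their sequences just upstream are shown for that reason. Each covers 120 bases before and 30 after the start site, 5′ to 3′ on the gene's own strand. For Npc1l1 (chr11:6230216-6230365, minus strand) capitals mark GTTAAT, a core of the HNF1 motif, here read on the opposite strand. For Abca1 (chr4:53159866-53160015, minus strand) they mark the 1 match to AGGTCA written as a pair with 4 bases between (DR4, the element bound by LXR), read on the opposite strand with 3 differences.
Npc1l1: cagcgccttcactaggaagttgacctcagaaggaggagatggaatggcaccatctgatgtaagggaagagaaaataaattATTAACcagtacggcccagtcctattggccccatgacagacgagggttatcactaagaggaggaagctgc
Abca1: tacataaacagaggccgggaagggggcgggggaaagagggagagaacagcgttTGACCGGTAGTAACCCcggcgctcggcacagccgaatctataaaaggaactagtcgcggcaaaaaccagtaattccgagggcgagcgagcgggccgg
The first base of the match was at -40 for Npc1l1 and at -67 for Abca1, relative to the start site. GTTAAT was found in 7.10% of all windows and DR4 with up to 3 differences in 21.9%. Neither was found in the other windows of these genes, and AGATAA was not in those of Npc1l1, Abca1 and Nr1h3. The motifs were picked after the sequences had been read, both strands were searched, and a match describes letters, not a bound site.

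Library totals ran from 30.5 to 54.5 in units of 1000000 counts at 8 days and from 26.1 to 36.3 at 3 months, so that 3 counts stood for 0.0551 to 0.0985 and 0.0827 to 0.115 counts per 1000000 (CPM). Rfx6 itself showed no lower level under the mutant label. At 8 days it stood at 1.61, 1.36 and 1.54 CPM in controls and at 1.80, 2.05, 1.57 and 1.43 CPM in libraries labelled mutant. At 3 months it stood at 1.77, 1.60, 1.48 and 1.51 CPM against 3.40, 2.38, 2.37 and 2.31 CPM, a log2 ratio of 0.72 (SE 0.17, edgeR adjusted p 0.0347). These totals cover the whole gene and the floxed exons alone were not analysed here, so groups are named by their labels throughout. The endocrine markers Gcg, Nts, Pyy, Chga and Chgb differed at 3 months, 3 called lower and 2 called higher. At 8 days Gcg was called lower (log2 ratio -4.15 with SE 0.32, edgeR adjusted p 0.00342), while Pyy stood at -2.65 (adjusted p 0.201) and Nts at -2.30 (adjusted p 0.315). Chga (0.31, adjusted p 0.704) and Chgb (0.37, adjusted p 0.538) had positive log2 ratios and were not called. The ileal enterocyte markers Slc10a2, Fabp6, Slc51a, Slc51b and Fgf15 summed to 1262 to 3878 CPM over the 15 libraries. Markers of the proximal small intestine, given below, also reached a sum of 1330 CPM in the 8-day controls. No threshold was set for meeting the tissue label.

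**Figure D1:**
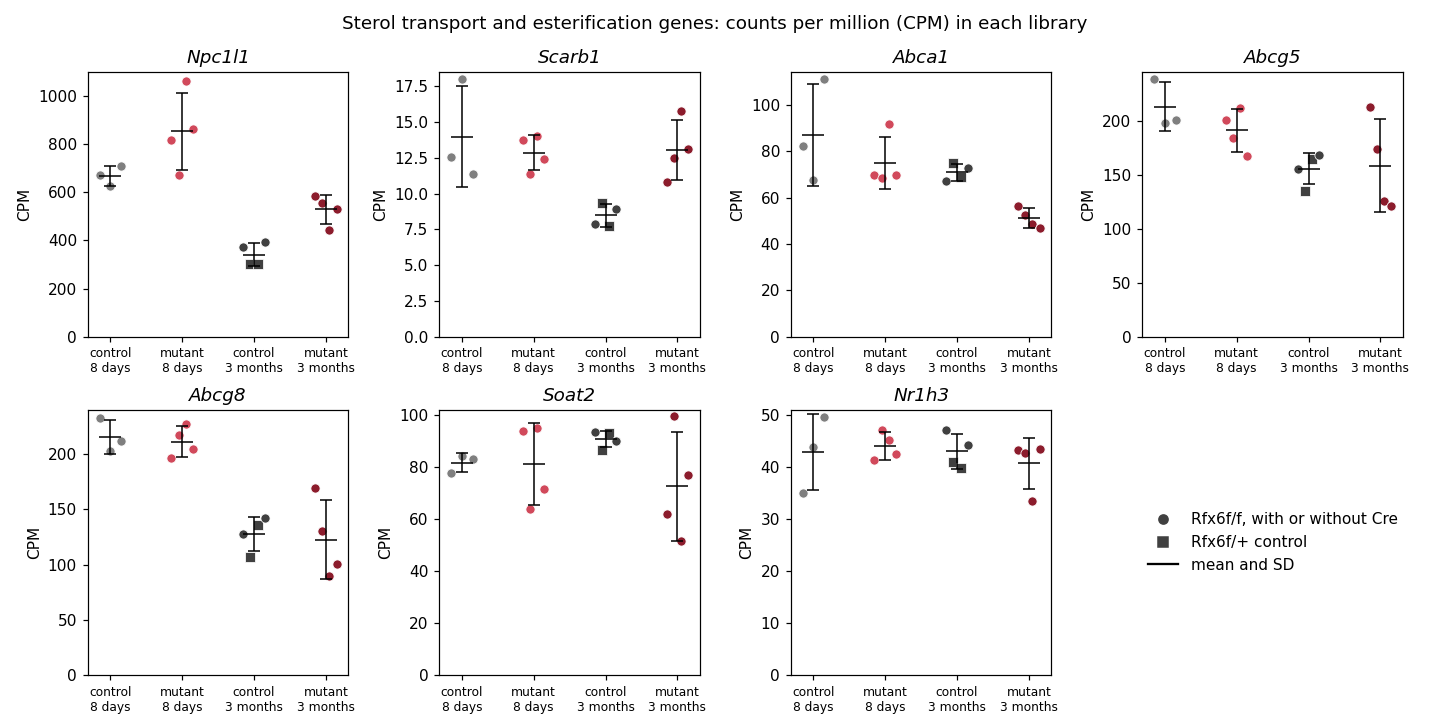
CPM of each of the 7 genes (vertical axis, from 0) in every library of the 4 groups (horizontal axis), with the group mean and SD as bars. Squares are Rfx6f/+ controls. At 3 months the groups do not overlap for Npc1l1, Scarb1 and Abca1, and the libraries labelled mutant spread widely for Abcg5, Abcg8 and Soat2.

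Within a library the 7 genes spanned a wide range, and only levels per exon length (CPM per 1000 exon bases) are compared between genes. In the 8-day controls the mean levels per 1000 exon bases were 149.7 for Npc1l1, 78.5 for Abcg5, 57.5 for Abcg8, 36.8 for Soat2, 17.0 for Nr1h3, 8.39 for Abca1 and 1.64 for Scarb1. This order held in all 7 libraries of 8 days, and in neither group did the ranges of neighbouring genes overlap. In the 3-month controls Soat2 (40.9) stood above Abcg8 (34.1) in 4 of 4 libraries. In the 3-month libraries labelled mutant it did so in 2 of 4, with overlapping ranges, so that Soat2 and Abcg8 could not be ordered there. Npc1l1 was highest and Scarb1 lowest in every one of the 15 libraries. The exon lengths pool all annotated isoforms, which can understate the level of a gene with a long, rarely used exon.

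At 8 days none of the 7 genes passed the test between libraries labelled mutant and control. Of the 7, 2 had a positive and 5 a negative log2 ratio, with a median of -0.03 against -0.00197 over the 17493 genes tested. The count of 0 of 7 (edgeR quasi-likelihood test) stood beside 0.0915% of all genes called. DESeq2 and limma-voom also called 0, and 1 of the 7, Npc1l1, had an unadjusted p under 0.05, as did 1540 of all 17493 genes. None of the 7 separated the groups without overlap, which 7.63% of all genes did.

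At 3 months 3 of the 7 passed. The uptake genes Npc1l1 and Scarb1 were higher and the efflux gene Abca1 was lower in the libraries labelled mutant, and each of the 3 separated the groups without overlap. Among all 17085 genes tested 9.28% were called, 4.96% higher and 4.32% lower, and 19.2% separated the groups. The median log2 ratio of the 7 was -0.06 against 0.00769 over all genes, and the median of its absolute size was 0.32 against 0.18. In bulk tissue, fewer cells of a type and less RNA per cell cannot be told apart.

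Npc1l1 stood at 372, 300.5, 301 and 392 CPM in the 3-month controls and at 586, 554.5, 444 and 531.5 CPM in the libraries labelled mutant. The lowest library labelled mutant was above the highest control. The mean rose from 341.5 ± 47.7 (SD, n = 4) to 529 ± 60.9 CPM (SD, n = 4), 1.55-fold, which is 0.63 as a log2 ratio (SE 0.12, edgeR adjusted p 0.0192.) The 4 controls fell into their genotypes, with Rfx6f/f at 372 to 392 CPM and Rfx6f/+ at 300.5 to 301 CPM, a split of 2 against 2 that was not tested and that 46.4% of all genes tested at 3 months also had, 2 of the 7 genes among them. With the Rfx6f/f controls alone the log2 ratio was 0.47 (adjusted p 0.172). Without control replicate 2 or control replicate 3, the Rfx6f/+ animals, the adjusted p was 0.0591 and 0.0598, at log2 ratios of 0.57 and 0.58.

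The same gene at 8 days stood at 672, 627 and 707 CPM in controls and at 816, 672, 1062 and 863 CPM in libraries labelled mutant. Replicates 1, 3 and 4 of the latter were above every control and replicate 2 lay among them. The means were 669 ± 40.4 (SD, n = 3) and 853 ± 161 CPM (SD, n = 4), a log2 ratio of 0.35 (SE 0.14, edgeR adjusted p 0.507). The effects at the 2 time points differed by 0.26 (SE 0.20, adjusted p 0.546).

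Scarb1 was the least abundant of the 7, at 200 to 304 counts in the 3-month controls and 336 to 592 in the libraries labelled mutant. Scaled to CPM, the values were 7.86, 9.34, 7.77 and 8.94 against 10.8, 12.5, 15.8 and 13.1. Every library labelled mutant was above every control, with replicate 3 highest. The means were 8.48 ± 0.782 and 13.1 ± 2.07 CPM (SD, n = 4 each), 1.54-fold, which is 0.62 as a log2 ratio (SE 0.13, edgeR adjusted p 0.0239.) The control genotypes overlapped for this gene. With the Rfx6f/f controls alone the log2 ratio was 0.64 (adjusted p 0.170), and without control replicate 1, 2 or 3 the adjusted p was 0.0688, 0.0543 and 0.0748.

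At 8 days Scarb1 stood at 12.6, 18.0 and 11.4 CPM in controls and at 13.7, 11.4, 14.0 and 12.4 CPM in libraries labelled mutant. The groups overlapped, and control replicate 2 was highest (log2 ratio -0.12 with SE 0.16, edgeR adjusted p 0.930). The sign of this value turned without that replicate, to 0.10. The effects at the 2 time points differed by 0.72 (SE 0.21, adjusted p 0.0948), which missed the threshold in edgeR and passed it in DESeq2 (0.74, adjusted p 0.0243).

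Abca1 stood at 67.0, 75.1, 68.7 and 72.6 CPM in the 3-month controls and at 56.3, 52.6, 48.6 and 46.8 CPM in the libraries labelled mutant. Both groups were narrow and did not overlap. The mean fell from 70.9 ± 3.67 to 51.1 ± 4.26 CPM (SD, n = 4 each), to 0.721 of the control level, which is -0.47 as a log2 ratio (SE 0.07, edgeR adjusted p 0.00938.) It was the only one of the 7 genes called in 8 of 8 fits with 1 library left out, at -0.52 to -0.43. With the Rfx6f/f controls alone the log2 ratio was -0.45 (adjusted p 0.126), in a fit that called 36 genes in all.

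At 8 days Abca1 stood at 82.3, 67.6 and 111 CPM in controls and at 69.7, 68.4, 91.7 and 69.8 CPM in libraries labelled mutant. The groups overlapped and each held 1 high library (log2 ratio -0.22 with SE 0.17, edgeR adjusted p 0.822). The value was -0.0015 without control replicate 3 and -0.37 without control replicate 2. The effects at the 2 time points differed by -0.27 (SE 0.19, adjusted p 0.521).

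**Figure D2:**
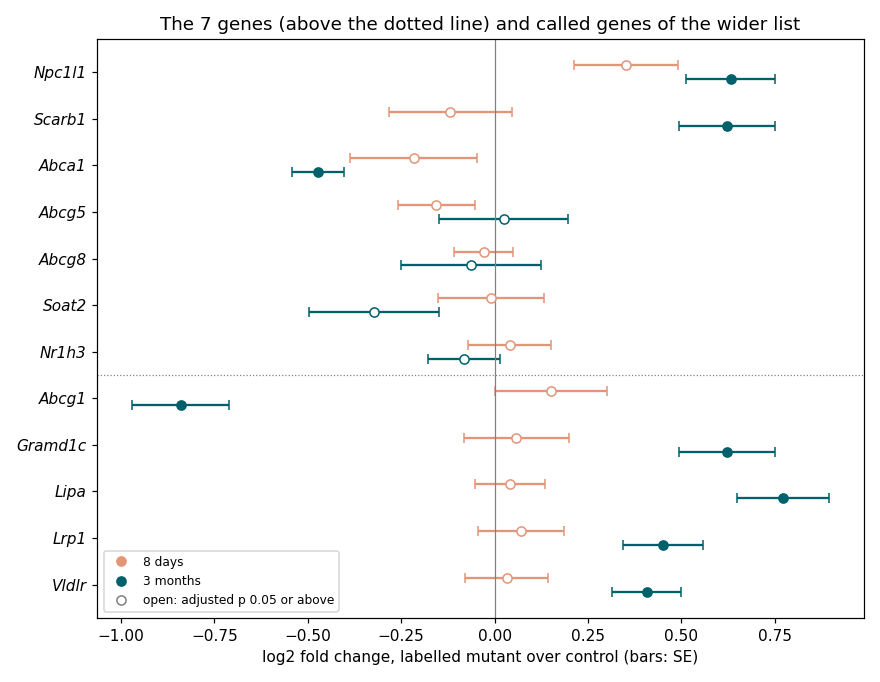
Log2 ratio of libraries labelled mutant over control (horizontal axis, bars are SE) for the 7 genes, above the dotted line, and for the 5 genes of the wider sterol list called at 3 months. Filled points passed an adjusted p of 0.05. At 8 days every point is open, and at 3 months Npc1l1 (0.63), Scarb1 (0.62) and Abca1 (-0.47) are filled.

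Abcg5 and Abcg8, the obligate partners of the sterol exporter, did not pass at either time. At 3 months Abcg5 stood at 155.5, 135, 164.5 and 168 CPM in controls and at 212, 174, 126 and 122 CPM in libraries labelled mutant. Abcg8 stood at 127.5, 107, 136 and 142 CPM against 170, 130, 89.7 and 100.4 CPM. For both genes replicates 1 and 2 of the libraries labelled mutant were higher than replicates 3 and 4. Replicate 1 was above and replicates 3 and 4 were below every control for both genes. The mean hardly differed between groups while the spread did. The coefficient of variation of Abcg5 was 9.41% in controls and 27.2% in libraries labelled mutant, and that of Abcg8 was 12.0% and 29.2%. The difference in spread was not tested, and the coefficient of variation was higher under the mutant label for 61.1% of all genes and over 2 times as high for 22.3%. The log2 ratios were 0.02 (SE 0.17) for Abcg5 and -0.06 (SE 0.19) for Abcg8, with edgeR adjusted p of 0.940 and 0.852. Both signs turned when single libraries were left out.

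At 8 days Abcg5 stood at 239, 198 and 201 CPM in controls and at 201, 184, 212 and 167.5 CPM in libraries labelled mutant (log2 ratio -0.16 with SE 0.10, edgeR adjusted p 0.759). Abcg8 stood at 232.5, 203 and 212 CPM against 196, 217.5, 227 and 204 CPM (log2 ratio -0.03, SE 0.08, adjusted p 0.971). The groups overlapped for both genes. The effects at the 2 time points differed by 0.16 (SE 0.22) for Abcg5 and by -0.05 (SE 0.23) for Abcg8, with adjusted p of 0.776 and 0.946.

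The 2 transporters varied together, most clearly in the 3-month libraries. With the mean of each group taken off, the correlation of their log2 CPM over 15 libraries was 0.92 (Pearson r), and Abcg8 ranked 14th of 14639 genes for Abcg5. All points come from the same libraries and share their scaling, so the value is a description. The 3-month libraries labelled mutant had the widest spread for both genes and weigh most in it. In the 8-day libraries labelled mutant the genes followed each other less. Replicate 1 there had the lowest Abcg8 (196 CPM) but not the lowest Abcg5 (201 CPM, against 167.5 CPM in replicate 4). The level of Abcg5 over that of Abcg8, per exon length, was 1.36 ± 0.0548 (SD, n = 3) in the 8-day controls and 1.25 ± 0.127 (SD, n = 4) in the libraries labelled mutant. At 3 months it was 1.69 ± 0.0473 and 1.80 ± 0.118 (SD, n = 4 each). Both cohorts had overlapping groups, while every 3-month library was above every 8-day library. The genes share 82 exon bases on opposite strands, 3.02% of those of Abcg5 and 2.19% of those of Abcg8, and reads there cannot be assigned if the counting ignored strand, which is not stated.

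**Figure D3:**
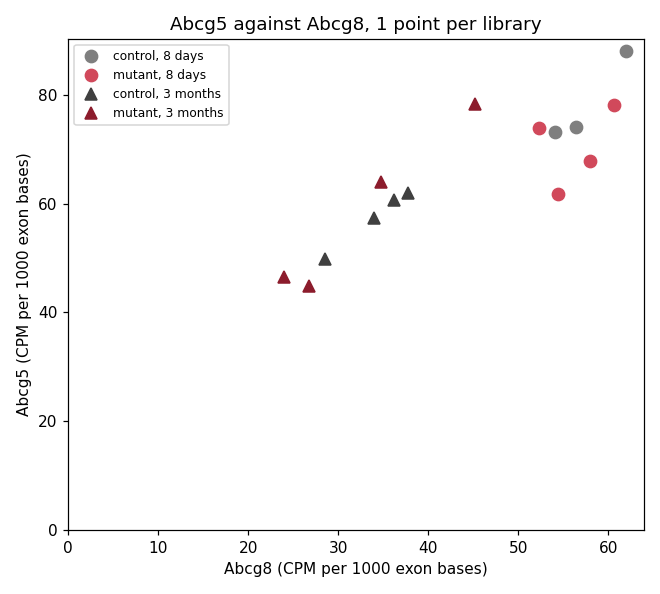
Level of Abcg5 (vertical axis) against Abcg8 (horizontal axis), both in CPM per 1000 exon bases, with 1 point for each of the 15 libraries. The points of the 3-month libraries lie close to a line, while those of the other cohort scatter. Of the 3-month libraries labelled mutant, replicate 1 lies at the upper end of that line and replicates 3 and 4 at the lower end.

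Soat2, the cholesterol acyltransferase, also had a wider spread at 3 months, with replicate 2 of the libraries labelled mutant highest where it was replicate 1 for Abcg5 and Abcg8. It stood at 93.3, 86.5, 92.8 and 89.7 CPM in controls and at 62.0, 99.3, 51.3 and 77.0 CPM in libraries labelled mutant. Replicates 1, 3 and 4 of the latter were below every control and replicate 2 was above every control. The coefficient of variation was 3.48% in controls and 28.7% in libraries labelled mutant, again without a test. The means were 90.6 ± 3.16 and 72.4 ± 20.8 CPM (SD, n = 4 each), a log2 ratio of -0.32 (SE 0.17, edgeR adjusted p 0.248). Without mutant replicate 2 the value was -0.51 (adjusted p 0.0419), a call that rests on leaving out that library.

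At 8 days Soat2 stood at 77.4, 84.1 and 83.05 CPM in controls and at 93.8, 63.75, 94.8 and 71.4 CPM in libraries labelled mutant. Here too the latter lay on both sides of the controls (log2 ratio -0.01 with SE 0.14, edgeR adjusted p 0.996). The effects at the 2 time points differed by -0.33 (SE 0.24, adjusted p 0.537).

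Nr1h3, the oxysterol receptor, did not pass at either time. At 3 months it stood at 47.1, 40.9, 39.8 and 44.3 CPM in controls and at 43.2, 42.7, 33.4 and 43.4 CPM in libraries labelled mutant (log2 ratio -0.08 with SE 0.10, edgeR adjusted p 0.605). At 8 days it stood at 35.1, 43.8 and 49.6 CPM against 41.4, 47.2, 45.2 and 42.4 CPM (log2 ratio 0.04, SE 0.11, adjusted p 0.971). The groups overlapped at both times. The effects differed by -0.14 (SE 0.16, adjusted p 0.710). It shares 34 exon bases, 1.35% of its own, with the predicted gene Gm13783 on the same strand.

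For the difference between time points the edgeR quasi-likelihood interaction test called 0 of the 7 genes, beside 0.785% of the 17959 genes tested. One of the 7, Scarb1, had an unadjusted p under 0.05, as did 2973 of all 17959 genes. DESeq2 called 1 of the 7, beside 1017 of all genes, and limma-voom 0. Time after tamoxifen and cohort cannot be told apart in these data.

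Relative to Abca1, Abcg5 and Soat2, the level of Npc1l1 was higher in the libraries labelled mutant at both times. Per exon length, the level of Npc1l1 over Abca1 was 18.9, 21.5 and 14.8 in the 8-day controls against 27.2, 22.8, 26.9 and 28.7 in those labelled mutant. At 3 months it was 12.9, 9.28, 10.2 and 12.5 against 24.2, 24.5, 21.2 and 26.4. In both cohorts every library labelled mutant was above every control. The ratio to Abcg5 had the same separation, at 1.71 to 2.13 against 2.22 to 3.13 at 8 days and at 1.11 to 1.45 against 1.68 to 2.65 at 3 months. The ratio to Soat2 separated the groups narrowly at 8 days, at 3.69 to 4.30 against 4.31 to 5.99, and by more at 3 months, at 1.61 to 2.165 against 2.77 to 4.68. That to Abcg8 overlapped at 8 days, and ratios to Scarb1 and Nr1h3 were not formed. How many other genes would separate the groups as divisors was not examined. The ratios were formed with the values of the single genes in view and are given without a test.

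**Figure D4:**
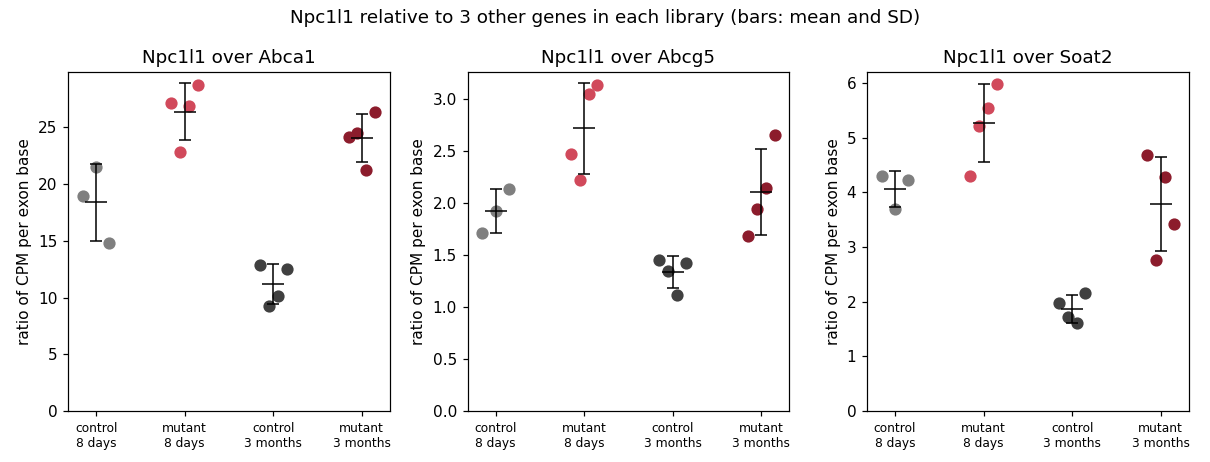
Ratio of the level of Npc1l1 to that of Abca1, Abcg5 and Soat2, each per exon base (vertical axes, from 0), in every library of the 4 groups, with mean and SD as bars. In all 3 panels the libraries labelled mutant lie above the controls of their own cohort. The ratio to Abcg8, which overlapped at 8 days, is not drawn.

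The other genes of sterol handling were taken as a list of 33, split into uptake, transfer inside the cell, esterification and ester hydrolysis, and efflux with its receptors and acceptors. All 33 were tested. At 8 days 0 of 33 passed by edgeR, beside 0.0915% of all genes, and 6 had an unadjusted p under 0.05, as did 1540 of all 17493, while DESeq2 called 2 (Mylip and Stard4), beside 178 of all genes, and limma-voom 0. At 3 months 5 passed, 4 higher and 1 lower, or 15.2% against 9.28% of all genes, and 22 of 33 had a positive sign. The median log2 ratio was 0.15 against 0.00769 over all genes.

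Of the 10 uptake genes 2 were called at 3 months, both higher, where 4.96% of all genes were called higher. Vldlr, a lipoprotein receptor, stood at 8.49 to 9.25 CPM in controls and at 10.6 to 12.8 CPM in libraries labelled mutant (log2 ratio 0.41 with SE 0.09, edgeR adjusted p 0.0324). Lrp1, a large endocytic receptor, stood at 528 to 662 against 748 to 969 CPM (0.45, SE 0.11, adjusted p 0.0370). Neither group pair overlapped, yet each call was kept in only 2 of 8 fits with 1 library left out.

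Of the 9 transfer genes 2 were called, both higher, beside the same 4.96%. Lipa, the lysosomal acid lipase that frees cholesterol from its esters, stood at 49.6, 44.5, 48.7 and 54.3 CPM in controls and at 105, 68.7, 80.7 and 81.9 CPM in libraries labelled mutant. Every library labelled mutant was above every control, with replicate 1 highest (log2 ratio 0.77 with SE 0.12, edgeR adjusted p 0.0112). Gramd1c, of the Aster family that carries plasma membrane cholesterol to the endoplasmic reticulum, stood at 20.2 to 26.3 against 31.1 to 42.4 CPM (0.62, SE 0.13, adjusted p 0.0239). Lipa was called in 8 of 8 fits with 1 library left out, Gramd1c in 5 of 8. None of the 4 esterification and hydrolysis genes passed by edgeR. Of these, 1 had an unadjusted p under 0.05, as did 5018 of all 17085 genes. That gene, Nceh1, a cholesteryl ester hydrolase (log2 ratio 0.58, edgeR adjusted p 0.0511), was called by DESeq2. Soat1, the acyltransferase of most other tissues, had a log2 ratio of 0.17 (adjusted p 0.369).

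Of the 10 genes of efflux, LXR and acceptors 1 was called at 3 months, and it was lower, a share of 10.0% that lies near the 9.28% of all genes. Abcg1, an exporter of cholesterol to HDL and a known LXR target, stood at 10.8, 12.4, 12.7 and 12.6 CPM in controls and at 5.75, 6.77, 6.18 and 8.40 CPM in libraries labelled mutant. No library of one group reached the other. The log2 ratio was -0.84 (SE 0.13, edgeR adjusted p 0.0102), and it was called in 8 of 8 fits with 1 library left out. At 8 days Abcg1 stood at 10.5, 8.89 and 9.64 CPM against 9.09, 10.5, 9.89 and 13.5 CPM (0.15, SE 0.15, adjusted p 0.880). The effects at the 2 time points differed by -1.01 (SE 0.20, adjusted p 0.0473), the single gene of the list that edgeR called for that difference, and it was kept in 3 of 15 fits with 1 library left out, where the adjusted p reached 0.129. DESeq2 called Abcg1 and Lipa for the difference, and Lipa (0.71, edgeR adjusted p 0.0558) was called in 6 of 23 alternatives. Other LXR-linked genes did not pass by edgeR at 3 months: Srebf1 had a log2 ratio of -0.14 (adjusted p 0.456), Nr1h2 of -0.15 (adjusted p 0.168) and Lpcat3 of 0.38 (adjusted p 0.0513). The apolipoprotein gene Apoa1, whose protein accepts cholesterol from ABCA1, had a log2 ratio of 0.58 (adjusted p 0.0966). DESeq2 called Lpcat3 and Apoa1, and the groups of Lpcat3 did not overlap. With the Rfx6f/f controls alone none of the 33 passed (edgeR, 9 at an unadjusted p under 0.05). The share of all genes under that p in this fit is not given here.

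Markers of cell types were summed in each library, and their calls stand beside 9.28% of all genes called at 3 months. The 5 enterocyte markers Vil1, Alpi, Anpep, Cdh17 and Slc5a1 summed to 7550 to 8685 CPM in controls and 6238 to 9476 CPM in libraries labelled mutant, and none was called (edgeR, at either time). The 5 proximal markers Gata4, Fabp1, Lct, Rbp2 and Slc40a1, of enterocytes nearer the stomach, where cholesterol uptake is highest, summed to 157 to 211 CPM in controls and 372 to 453 CPM in libraries labelled mutant. Of these Rbp2 (log2 ratio 1.60, adjusted p 0.00164) and Slc40a1 (0.70, adjusted p 0.0347) were called higher. The 5 ileal markers summed to 3200 to 3878 against 1262 to 2091 CPM, with Fabp6 (-1.44, adjusted p 0.00873) and Slc51b (-0.70, adjusted p 0.00613) called lower. At 8 days the proximal sum was 660 to 1330 CPM in controls and 212 to 1199 CPM in libraries labelled mutant, and 0 of 5 were called.

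Markers of other cells of the gut wall were summed in the same way. The 7 macrophage markers, of a cell type known for Abca1 and Abcg1, summed to 224 to 281 CPM in the 3-month controls and 263 to 368 CPM in the libraries labelled mutant, with 1 of 7, Csf1r, called higher (0.60, adjusted p 0.0212). The mean sum was 259 against 298 CPM and the mean of Csf1r alone 77.1 against 117 CPM, while C1qa (-0.06) and C1qb (-0.13) had negative log2 ratios and the median of the list was 0.087. The 3 T-cell markers summed to 34.4 to 42.9 against 8.85 to 27.6 CPM with 2 called lower, and the 4 B-cell markers to 71.7 to 157 against 10.8 to 97.2 CPM with 0 called by edgeR. At 8 days the B-cell sum ran the other way, at 12.1 to 35.9 against 15.2 to 196 CPM, again with 0 of 4 called. The 3 endothelial markers summed to 72.5 to 77.9 against 81.7 to 113 CPM with 2 called higher. The 4 smooth muscle markers summed to 1348 to 1629 against 1470 to 2599 CPM with none called. No marker was at 0 in all libraries of a group. The part of these cells in the results above was not tested.

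For each of the 7 genes the protein-coding genes with the most similar pattern were sought over the 15 libraries, with the mean of each group taken off, among 14639 genes. The Pearson r that follows each name is of log2 CPM, and r with only the cohort means off is in parentheses. For Npc1l1 they were Cideb at 0.92 (0.68), Slc43a2 at 0.91 (0.39) and Furin at 0.87 (0.84). For Scarb1 they were Gosr2 at 0.88 (0.054), Slc37a2 at 0.84 (0.50) and Pgrmc2 at 0.81 (0.82). For Abca1 they were Phactr4 at 0.89 (0.34), Crtc3 at 0.87 (-0.20) and Gcc1 at 0.86 (0.55). Abcg5 was most like Lmtk2 at 0.96 (0.79), Ube4a at 0.95 (0.89) and Ncor1 at 0.94 (0.78). Abcg8 was most like Acaa1a at 0.95 (0.85), Map3k4 at 0.95 (0.91) and Cyp27a1 at 0.95 (0.71), the last encoding sterol 27-hydroxylase. Soat2 was most like Slc3a2 at 0.94 (0.93), 2010003K11Rik at 0.93 (0.87) and H2-T22 at 0.93 (0.87), and Nr1h3 was most like Dhrs7b at 0.93 (0.84), C1qtnf12 at 0.89 (0.89) and Ogfod3 at 0.88 (0.67). None of the 7 genes was among the first 3 of another. All points share libraries and scaling, so no test is attached.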

How the data were processed

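The deposited files hold raw read counts per Ensembl gene made by the authors, 1 table per cohort and 1 column per animal. The submitters' processing notes name bcl2fastq 2.17.1.14, Bowtie 1.0.0, TopHat2 2.0.10, Bowtie2 2.1.0, HTSeq 0.6.1 and the build mm9, without roles or order. Strand handling is not given in the sources used here. Per the labels' protocols, total RNA was depleted of ribosomal RNA, while the molecule label says polyadenylated RNA, and RNA came by TRI-reagent or a column kit, not stated per sample. Symbols (32897 identifiers), exon lengths and overlaps came from GENCODE M21 (GRCm38), another build than the authors', so no gene coordinates are set beside the counts. Promoter windows and their coordinates are from RefSeq (GRCm38.p6).

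Each time point was fitted alone over all genes by the quasi-likelihood test of edgeR 4.0.16 under R 4.3.3 (filterByExpr with a minimum count of 10, TMM scaling), and the difference between time points as an interaction over 15 libraries. Genes were called at a two-sided Benjamini-Hochberg adjusted p under 0.05 over all genes tested. CPM use the library size TMM-scaled within each cohort, and log2 ratios are fitted log2 fold changes of libraries labelled mutant over control. Floors of 3 counts cover counting error only. The closest pair of libraries in a group differed by a chi-square per degree of freedom of 11.3, so each counted as 1 replicate. Replicates are numbered in deposit order and the labels pair no animals. The labels give 1 title per sample and nothing on separate handling, so p-values measure the spread between these samples. Alternatives were DESeq2 1.42.0, limma-voom (3.58.1), RLE scaling, totals that leave out the 20 most counted genes as scaling, no filter on counts, 10 counts in every library, robust empirical Bayes, a joint fit, calls limited to an absolute log2 ratio of 1 or more, the Rfx6f/f controls alone, and each library left out in turn. The tests were tested on simulated data first, where DESeq2 made more false calls than edgeR and limma-voom. Named genes were the 7, Rfx6, called genes of the list of 33, the markers and the 3 nearest genes by correlation (log2 of CPM + 0.5). Genes of the list named without a call, and the marker genes named with values, were chosen after their values were seen. The result of 1 gene of the list is not reported here. The 7 genes and the lists were chosen with earlier results of these data known. Figures were drawn with matplotlib 3.10.9.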

Additional observations from a re-analysis of the deposited data

Results flagged for a closer look

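In 36 checks of a group for 1 library set apart, 4 were positive, and chance alone gives 1.8 (1 in 20). The 8-day controls, with 3 libraries, were not among the groups checked. At 8 days mutant replicate 3 had 91.7 CPM of Abca1 where the rest of its group had 68.4 to 69.8, and 1334 CPM of Lrp1 where the rest had 1080 to 1105. At 3 months Nr1h3 stood at 33.4 CPM in mutant replicate 3, below 42.7 to 43.4 in the rest, and Abcg1 at 10.8 CPM in control replicate 1, below 12.4 to 12.7. The effect of the label on Abcg1 differed between the time points, by -1.01 on the log2 scale (edgeR interaction test, adjusted p 0.0473). Over 23 alternatives that adjusted p ran from 0.000414 to 0.222.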

How the results depend on the processing

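Apart from fits with 1 library left out, single genes kept direction and call in 282 of the values recomputed, lost the call in 10, gained it in 5 and turned in sign in 3. With the 2 Rfx6f/f controls alone, a fit with fewer controls as well as 1 genotype, 36 genes were called at 3 months in place of 1586. For the difference 5 were called in place of 141. Of the 7 genes and of the list of 33, 0 were called in these fits. At 3 months 3 of the 7 had an unadjusted p under 0.05 (edgeR), and the share over all genes is not given here. DESeq2 called 2983 genes at 3 months, 178 at 8 days in place of 16 (61.2% of them higher, against 37.5%) and 1017 for the difference. It called 1 of the 7 for the difference, and 8 of the list at 3 months and 2 at 8 days. A log2 ratio of at least 1 left 341 genes at 3 months and 87 for the difference. For the difference, limma-voom called 41, no filter 223 and 10 counts in every library 248. At 8 days no filter gave 27 and the joint fit 25. Scaling without the 20 most counted genes gave 78 for the difference and 64.7% higher calls at 3 months against 53.5%. It turned Soat2 at 8 days to 0.0015, and limma-voom and the Rfx6f/f controls turned Abcg5 at 3 months to -0.010 and -0.031. No scaling moved the median of all genes by over 0.1.

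With 1 library left out, 391 to 1521 genes were called at 3 months, 8 to 200 at 8 days and 10 to 749 for the difference. At 3 months 391 to 412 were left without control replicate 1, 2 or 3, 856 without mutant replicate 1 and 768 without mutant replicate 3. At 8 days 8 to 10 were left without any one control, and 200 came without mutant replicate 1, which also gave the 749. For the difference every library but control replicate 4 of 3 months moved the count by over 1.5 times. Of the 7 genes 1 to 4 were called at 3 months, 1 without control replicate 2 or 3, and of the list 2 to 5 at 3 months (2 without control replicate 1, 2 or 3, and 3 without mutant replicate 3) and 0 to 1 at 8 days. Signs turned in these ranges of log2 ratios. At 3 months Abcg5 ran from -0.15 to 0.13, Abcg8 from -0.26 to 0.062 and Nr1h3 from -0.12 to 0.0029. At 8 days Abcg8 ran from -0.072 to 0.027, Nr1h3 from -0.085 to 0.16, Scarb1 from -0.25 to 0.10, Soat2 from -0.10 to 0.090, Gramd1c from -0.10 to 0.20, Lipa from -0.040 to 0.13, Lrp1 from -0.023 to 0.17 and Vldlr from -0.025 to 0.13. For the difference Abcg5 ran from -0.015 to 0.28 and Abcg8 from -0.25 to 0.10. The cause of these changes was not tested. No paired analysis was possible because the labels pair no animals. With 3 or 4 libraries per group, the smallest change that could be detected was not tested, and Scarb1 rested on 200 to 664 counts per library.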

Other observations

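The controls of the 2 cohorts differed in level for most of the 7 genes, in a fit of all 15 libraries. Time after tamoxifen, cohort and control genotype are confounded here, and the tables were deposited apart, so the values are given without a test. All 8-day controls were Rfx6f/f, while 2 of the 3-month controls were Rfx6f/+. For Npc1l1 the 3-month means were 382 CPM in Rfx6f/f and 301 CPM in Rfx6f/+ controls. Npc1l1 was 2.03-fold higher in the 8-day controls (log2 ratio of 3 months over 8 days -1.02, SE 0.14). Abcg8 stood at -0.81 (SE 0.17), Scarb1 at -0.77 (SE 0.15), Abcg5 at -0.50 (SE 0.16) and Abca1 at -0.35 (SE 0.14). Soat2 (0.10, SE 0.18) and Nr1h3 (-0.05, SE 0.11) lay near the median of all genes, 0.018. The same controls had proximal enterocyte markers at 660 to 1330 CPM at 8 days and 157 to 211 CPM at 3 months. Gata4, the factor of the proximal small intestine, had a mean of 19.1 CPM in the 8-day and 2.61 CPM in the 3-month controls. For Npc1l1 the 3-month libraries labelled mutant, at 444 to 586 CPM, lay between the 3-month controls and the 8-day controls, at 627 to 707 CPM. The CPM were scaled within each cohort alone, so CPM set side by side across cohorts share no common scaling.

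Besides Npc1l1, the 3-month controls separated by genotype for Nr1h3, at 44.3 to 47.1 CPM in the Rfx6f/f and 39.8 to 40.9 CPM in the Rfx6f/+ animals. In the list of 33, 19 genes separated, among them Gramd1c (26.2 to 26.3 and 20.2 to 22.5 CPM), Lipa (49.6 to 54.3 and 44.5 to 48.7 CPM) and Lrp1 (632 to 662 and 528 to 578 CPM). Of all genes tested 46.4% separated, with 2 animals per genotype and no test.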
